A study of Homo sapiens with 20 samples.

Results

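The ERV1 endogenous retrovirus subfamilies are the repeats that descend from gammaretrovirus-like infections of the primate and mammalian germ line. They were taken here as every repeat row with the family ERV1 and the class LTR, without HERV9 and its long terminal repeats LTR12, which gave 289 of 1174 repeat subfamilies and of 41092 rows in all. A provirus of this kind carries its gag, pol and env remnants in an internal region between a pair of long terminal repeats (LTRs), and the LTR holds the promoter and the polyadenylation signal. Recombination has left most insertions as solo LTRs. KRAB zinc finger proteins, TRIM28, the histone methyltransferase SETDB1 and DNA methylation are known to keep such elements silent, and the LTR7-driven HERVH elements are known for their transcripts in pluripotent stem cells and in colorectal tumours. By name, 63 of the 289 rows were internal regions and 226 were LTRs or other elements.

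Each sample was grown from HCT-116, a cell line established from a human colorectal carcinoma, and its total RNA was sequenced after removal of ribosomal RNA to follow transcripts when the proteasome is inhibited. The 20 libraries formed 5 groups of 4. Asynchronous cells were untreated. All other groups had been stalled in DNA replication with 2 mM thymidine for 16 h and released for 7 h, and the G2 group was taken at that point with no drug. From there the MG132 group had 3 h of 20 µM MG132, the bortezomib group 3 h of 100 nM bortezomib, and the last group 3 h of 20 µM MG132 together with 50 µg/ml α-amanitin. MG132 and bortezomib are proteasome inhibitors, and α-amanitin inhibits RNA polymerase II. No group with 3 h of vehicle was analysed here, so a drug group against G2 also spans 3 h of the cell cycle, and the 2 cannot be told apart. The labels do not name separate cultures, so p-values measure the spread between these libraries, which may be technical. In every group 8 or 9 of 11 colon epithelium markers stood above 1 CPM, the count scaled to library size, with sums from 3230 to 6000 CPM, while the fibroblast markers summed to 3.23 to 13 CPM and the leukocyte markers to 1.69 to 6.86 CPM.

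ERV1 transcripts were a small part of the libraries, and a few subfamilies made up much of them. Library totals ran from 26797395 to 39710457 counts, of which ERV1 took 0.108% to 0.348%, or 1.39% to 3.22% of the repeat counts. HERVH-int, the internal region of HERVH, held 21% of all ERV1 counts with 257763. It was followed by LTR7Y, an LTR variant of the same elements, with 4.46%. HERVIP10FH-int and HERVIP10F-int, internal regions of the HERVI group whose LTRs are LTR10, held 3.7% and 3.08%. MER52A, an LTR, held 1.85% and MER61-int 1.71%. The 21 most abundant subfamilies made 50.5% of the total, and the median subfamily had 1718 counts over the 20 libraries. Element lengths and copy numbers were not used here, so these are shares of counts and not levels per length. Of the 289 subfamilies 271 passed the filter on low counts, 62 internal regions and 209 LTRs. The other 18 held from 1 count to the 196 counts of LTR73 and include LTR7A with 68 counts.

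Summed over the 289 subfamilies, the asynchronous libraries held 1865, 2338, 1273 and 2422 CPM, scaled by the TMM method. The G2 libraries held 1444, 1242, 2053 and 2019 CPM. The MG132 libraries held 2400, 1569, 1719 and 1059 CPM. These 3 groups overlapped throughout. The bortezomib libraries held 2491, 2060, 1808 and 3456 CPM, and those with MG132 and α-amanitin 2765, 2445, 2133 and 1401 CPM. The bortezomib libraries lay high, with 3 of 4 above the highest G2 library, but the group still overlapped every other. As a share of repeat counts, ERV1 reached 3.22%, 3.03%, 3.08% and 2.51% with MG132 and α-amanitin against 2.64%, 2.64%, 2.5% and 1.65% with MG132. The G2 libraries ran from 1.39% to 3.1% and overlapped both groups.

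**Figure D1:**
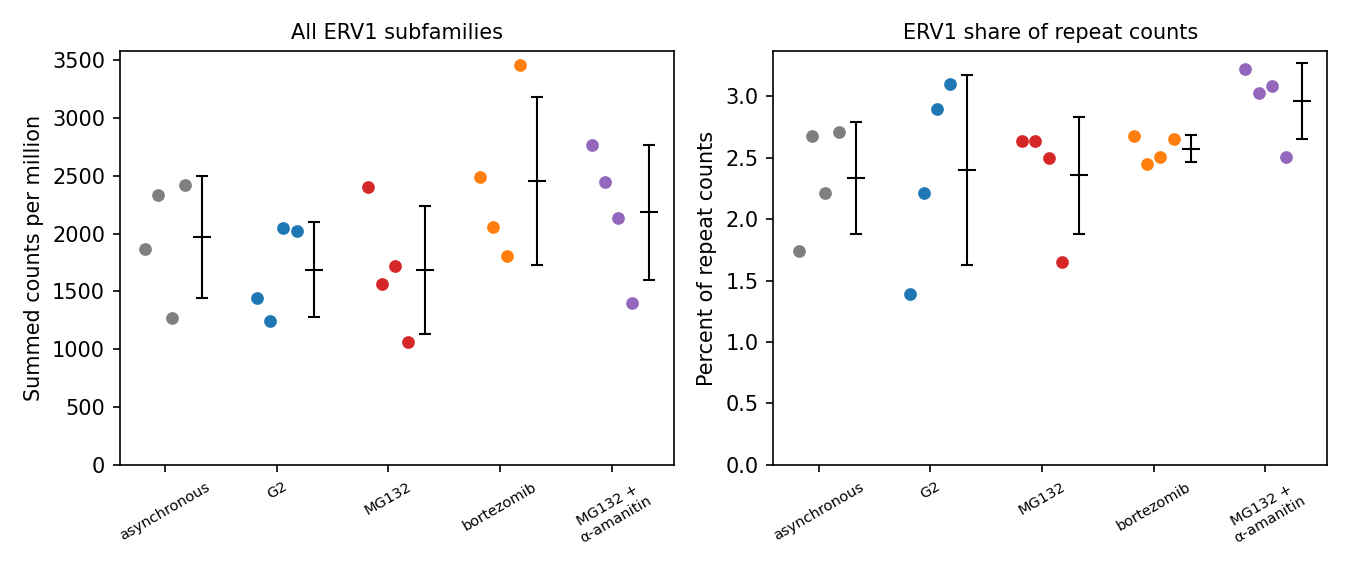
Left, summed CPM of the 289 ERV1 subfamilies, and right, their percent of all repeat counts, with 1 point for each of the 4 libraries of a group and the mean with its SD beside them. The bortezomib libraries reach 3456 CPM but overlap the other groups, and 3 of 4 libraries with MG132 and α-amanitin sit above 3% of repeat counts, where the highest G2 library reaches 3.1%.

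Between libraries of 1 group, ERV1 subfamilies and other repeats moved together. MG132 replicate 1 was the highest of its group for 223 of the 271 tested subfamilies (82.3%) and replicate 4 the lowest for 209 (77.1%). Bortezomib replicate 4 was the highest for 234, and with MG132 and α-amanitin replicate 1 was the highest for 226 and replicate 4 the lowest for 236. Of 18959 tested genes, MG132 replicate 1 was the highest for 18.3% and bortezomib replicate 4 for 24.8%. Of 805 other repeats these libraries were the highest for 88.3% and 91.9%, and replicate 4 with MG132 and α-amanitin was the lowest for 92.3%. The median coefficient of variation of a subfamily within a group ran from 33.9% to 47.3%. Asynchronous and G2 replicates 1 stood apart with SINE sums of 78630 and 75440 CPM against at most 60430 CPM elsewhere. The steepest slopes of gene levels on GC content were in MG132 replicate 4 (0.563 log2 units per 10 points of GC), asynchronous replicate 3 (0.391), MG132 replicate 2 (-0.338) and G2 replicate 2 (0.268), among them the libraries with the lowest ERV1 sums in the asynchronous, G2 and MG132 groups. The part of GC content in the results below was not tested beyond leaving out these 4 libraries.

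The ERV1 subfamilies that edgeR called all came from the 2 comparisons with α-amanitin. With MG132 and α-amanitin, 5 ERV1 subfamilies were higher and 0 lower than in G2 at an adjusted p under 0.05 by edgeR's quasi-likelihood test, where 3.11% of all tested rows and 0.743% of repeat subfamilies were called, and of repeats 0.743% higher and 0% lower. At an unadjusted p under 0.05 there were 55 higher and 4 lower (21.8% of ERV1 subfamilies, 10.5% of repeat subfamilies and 14.2% of all rows). DESeq2 called 13 higher and 0 lower. The called subfamilies were MER89-int, HERV15-int, LTR43-int, LTR43 and HERV4_I-int. LTR43-int was named after its values were seen, since its level lay below the limit for naming. The median log2 fold change of the tested subfamilies was 0.53, against 0.41 over all repeats and 0 over genes. Among other LTR repeats it was 0.54 for ERVL with MaLR and 0.51 for ERVK. When repeats were fitted and scaled alone, the ERV1 median was 0.1, against 0.13 and 0.07 for those families. Internal regions had a median of 0.84 with 4 of 62 called, and LTRs one of 0.49 with 1 of 209 called. The groups did not overlap for 15 of 271 subfamilies higher and 1 lower, where 3.62% and 0.186% of repeat subfamilies did the same. Over all 20035 tested rows, 1510 did so higher and 1375 lower. With a block for the letter in the sample codes, a possible batch, edgeR called 0, with 15 at an unadjusted p under 0.05. MER89-int alone was called without G2 replicate 2, and leaving out replicate 1, 2 or 3 of the α-amanitin group left 2 calls each. Of 20 alternatives MER89-int was called in 19, HERV15-int in 13, LTR43-int in 9, HERV4_I-int in 6 and LTR43 in 4.

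With α-amanitin added to MG132 for the same 3 h, 5 ERV1 subfamilies were higher and 1 lower than with MG132 alone, where 2.08% of all rows and 0.929% of repeat subfamilies were called, 0.651% of repeats higher and 0.279% lower. At an unadjusted p under 0.05 there were 38 higher and 3 lower (15.1% of ERV1 subfamilies, 6.78% of repeat subfamilies and 12.2% of all rows). DESeq2 called 8 higher and 1 lower. The groups did not overlap for 12 of 271 subfamilies higher and 2 lower, where 1.77% and 0.465% of repeat subfamilies did the same. Over all 20035 tested rows, 932 did so higher and 766 lower. The 5 were MER89-int, LTR10G, HERV15-int, LTR43 and HERV4_I-int, and the 1 was LTR4. LTR10G was named after its values were seen, for its low level. The median log2 fold change was 0.41, against 0.25 over all repeats and 0.02 over genes, with 0.6 for internal regions and 0.36 for LTRs. Among other LTR repeats it was 0.41 for ERVL with MaLR and 0.29 for ERVK. When repeats were fitted and scaled alone, the median was 0.16 for ERV1, 0.16 for ERVL with MaLR and 0.02 for ERVK. A fit of only these 8 libraries called 0, with 36 at an unadjusted p under 0.05. Leaving out the 4 libraries with the steepest GC slopes left LTR4 alone. A fit of all groups without MG132 replicate 2 or 3, or without replicate 1 or 2 of the α-amanitin group, called 2 each. Of 20 alternatives LTR4 was called in 19, MER89-int in 13, LTR10G in 12, HERV15-int in 10, HERV4_I-int in 6 and LTR43 in 5. This comparison and the one with G2 share the α-amanitin libraries.

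**Figure D2:**
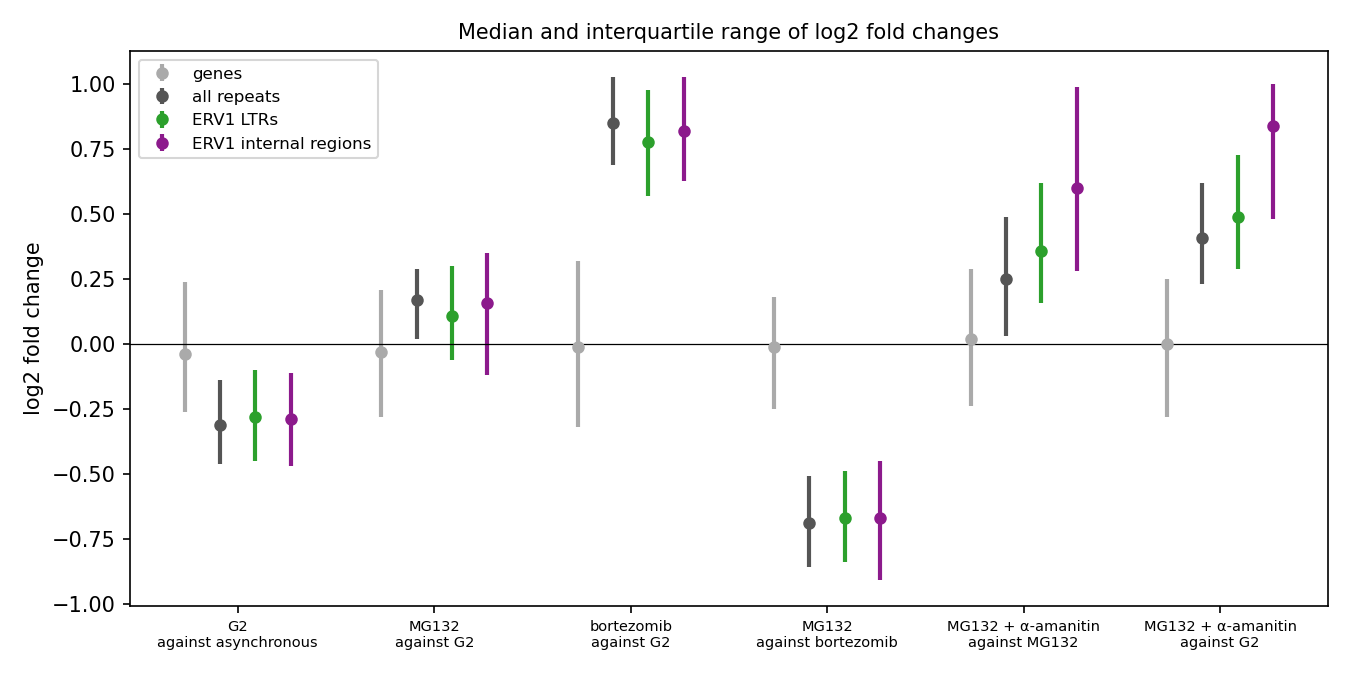
Median (point) and interquartile range (bar) of the log2 fold change in each of 6 comparisons, for tested genes, all repeats, ERV1 LTRs and ERV1 internal regions. Against G2 the internal regions have medians of 0.84 with MG132 and α-amanitin and 0.82 with bortezomib. All repeats have medians of 0.41 and 0.85 in these 2 comparisons. With bortezomib the median over all ERV1 rows, not plotted, is 0.79 and becomes -0.1 when repeats are fitted and scaled alone.

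MER89-int, the internal region of an ERV1 element whose LTR is MER89, showed the largest of these differences. It held 44.4, 28.8, 16.5 and 15.5 CPM with MG132 and α-amanitin, 9.66, 3.99, 6.43 and 1.28 CPM with MG132, and 3.01, 1.92, 4.66 and 4.87 CPM in G2. Every library with α-amanitin stood above every other library of the study, the highest of which was bortezomib replicate 4 with 11.4 CPM. The log2 fold change was 2.86 ± 0.526 (SE) against G2 (edgeR adjusted p = 0.00405) and 2.3 ± 0.513 (SE) against MG132 (adjusted p = 0.019). MER89 itself, the LTR, looked up after its internal region was called, had log2 fold changes of 0.37 (adjusted p = 0.781) and 0.31 (adjusted p = 0.856) in the same comparisons. The difference between the internal region and the LTR was not tested.

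HERV4_I-int, the internal region of HERV4, held 13.7, 13.6, 13.9 and 10.7 CPM with α-amanitin against 9.44, 6.4, 7.5 and 3.48 CPM with MG132 alone. No G2 library exceeded 8.53 CPM, so the α-amanitin libraries were apart from both groups. Its log2 fold change was 0.95 against MG132 (edgeR adjusted p = 0.0422) and 0.9 against G2 (adjusted p = 0.0424). LTR43 held 4.67, 3.41, 3.46 and 3.34 CPM with α-amanitin, and its libraries with MG132 alone lay from 1.54 to 2.34 CPM. The log2 fold change of LTR43 was 0.89 (adjusted p = 0.0409) against MG132 and 0.87 (adjusted p = 0.0349) against G2. LTR43-int, the internal region that goes with it, held 1.48, 0.876, 1.27 and 0.718 CPM with α-amanitin and 0.234 to 0.625 CPM in G2, a log2 fold change of 1.34 (adjusted p = 0.0196).

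HERV15-int, the internal region flanked by LTR15, held 1.62, 1.69, 1.5 and 0.912 CPM with α-amanitin, 0.706, 0.593, 0.314 and 0.541 CPM with MG132, and 0.43 to 0.625 CPM in G2. The α-amanitin libraries did not overlap either group. Its log2 fold change was 1.42 against MG132 (edgeR adjusted p = 0.02) and 1.46 against G2 (adjusted p = 0.0126). LTR15 did not pass in the comparison with G2, with a log2 fold change of 1.28 (adjusted p = 0.148). LTR10G, an LTR of the HERVI group, held 2.44, 1.97, 1.92 and 1.27 CPM with α-amanitin and 0.47 to 1 CPM with MG132, a log2 fold change of 1.51 (adjusted p = 0.0165). In G2 it held 0.572 to 1.59 CPM and overlapped the α-amanitin libraries, and it was not called against G2.

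LTR4, the LTR of HERV3, was the 1 subfamily called lower with α-amanitin with genes in the fit. It held 4.39, 5.73, 5.31 and 4.43 CPM with MG132 and 2.44, 2.57, 1.34 and 1.71 CPM once α-amanitin was added, and the groups lay well apart. The log2 fold change was -1.3 ± 0.231 (SE, edgeR adjusted p = 0.00284). G2 libraries held 2.94, 3.33, 2.79 and 2.46 CPM and asynchronous libraries 2.39 to 2.85 CPM, so that all 4 MG132 libraries also stood above both groups that had no drug for 3 h. LTR4 in MG132 against G2 had a log2 fold change of 0.78 ± 0.227 (SE), which did not pass (adjusted p = 0.0909). With bortezomib it held 3.96, 2.56, 2.89 and 4.44 CPM, overlapping G2 (log2 fold change 0.26, adjusted p = 0.555). HERV3-int, the internal region of the same element, had other values. It held 0.808 to 3.19 CPM in G2, 1.52 to 4.68 CPM with MG132, 3.81 to 6.36 CPM with bortezomib and 2.9 to 5.3 CPM with MG132 and α-amanitin. The nearest of its differences to the threshold was bortezomib against G2, at 1.3 (adjusted p = 0.0859).

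**Figure D3:**
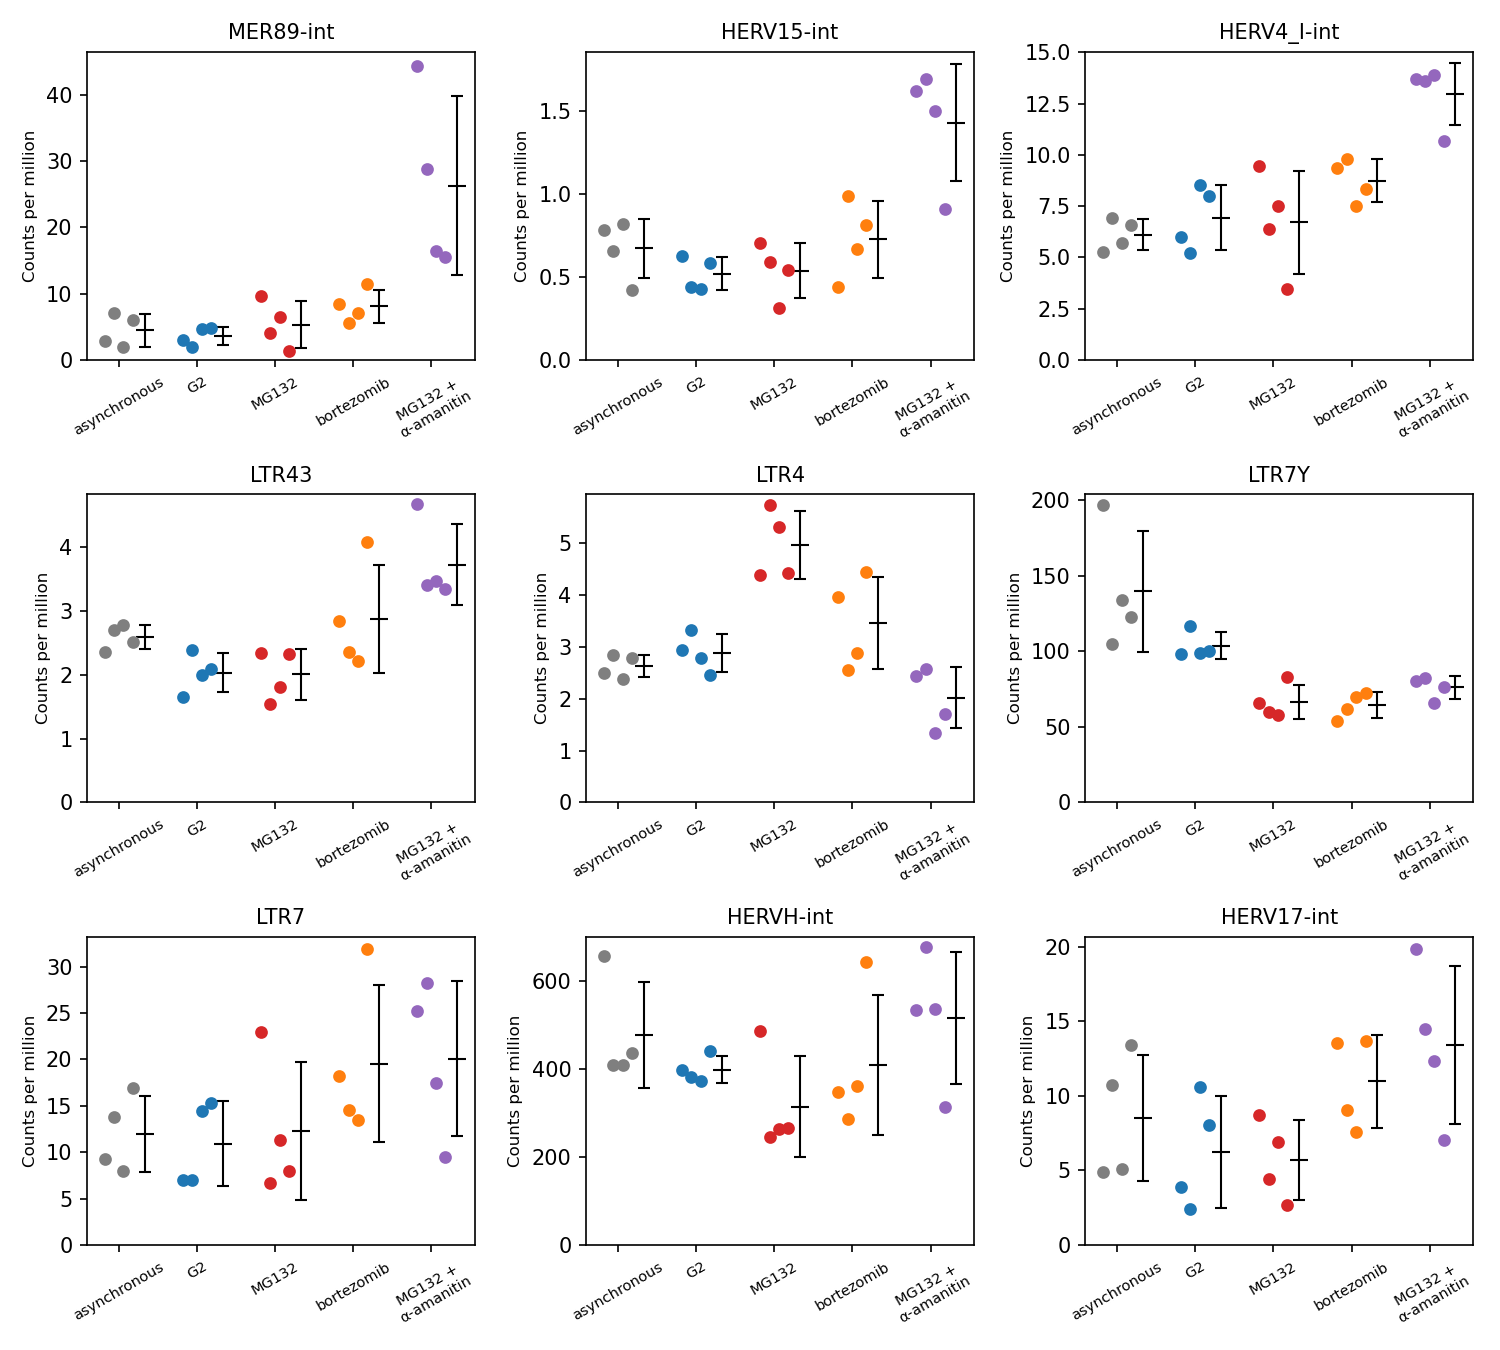
CPM of 9 ERV1 subfamilies in each of the 20 libraries (points, 4 per group, axes from 0) with the mean and SD of each group beside them. MER89-int is highest in the 4 libraries with α-amanitin (15.5 to 44.4 CPM), LTR4 holds 4.39 to 5.73 CPM in the 4 MG132 libraries and at most 3.33 CPM in G2, and LTR7Y is lower in the 3 drug groups than in G2.

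The gene ERV3-1 is the envelope gene of a HERV3 provirus on chromosome 7, and RefSeq gives it 2 start windows on GRCh38.p14. One of them has TATAAA before the start and AATAAA after it, both on the gene's strand. It is printed here as a start of the HERV3 envelope gene and was chosen because it holds TATAAA, so that match is not a result. Whether it lies in an LTR4 copy was not analysed here. The 250 bases before that start (chr7:64999443-64999692, minus strand, 5′ to 3′, with the motif TATAAA in capitals) read as follows.
ERV3-1 start: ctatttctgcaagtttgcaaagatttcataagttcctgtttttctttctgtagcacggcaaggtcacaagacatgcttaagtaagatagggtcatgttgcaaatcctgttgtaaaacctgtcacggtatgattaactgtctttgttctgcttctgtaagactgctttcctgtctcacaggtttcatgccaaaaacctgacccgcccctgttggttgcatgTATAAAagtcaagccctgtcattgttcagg
The motif TATAAA begins 30 bases before the start. At any position and on either strand, a wider search, it occurs in 11.5% of 35116 RefSeq windows of 300 bases. AATAAA lies in the 50 bases after the start, and by the same wider search it occurs in 17.4% of windows. The AP-1 motif TGANTCA and the heat shock half-site pair GAANNTTC have no match in this window on either strand, and occur in 7.71% and 6.77% of all windows. The other ERV3-1 window has no match to any of these motifs. A match or its absence describes these letters only.

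ERV3-1 did not pass the test in any comparison. It held 2.38 to 3.51 CPM in asynchronous cells, 3.04 to 3.93 CPM in G2, 2.64 to 4.51 CPM with MG132, 4.73 to 6.03 CPM with bortezomib and 3.01 to 5.49 CPM with MG132 and α-amanitin. The bortezomib libraries lay above all G2 libraries (log2 fold change 0.51, edgeR adjusted p = 0.262). ERV3-1 overlaps ZNF117 on the same strand, and how the counting divided reads between them is not given in the sources used here. ERVMER34-1, a conserved envelope gene of a MER34 element, held 42.6 to 50.5 CPM in G2 and 21.6 to 37.4 CPM with MG132 (log2 fold change -0.58, adjusted p = 0.137). Of 8 ERV1 envelope genes listed, 5 were found, 2 were tested and 0 were called in any comparison, with at most 1 at an unadjusted p under 0.05 and 0 by DESeq2. ERVW-1, which encodes syncytin-1, the fusogenic envelope protein of a HERV17 (HERV-W) provirus, had 23 counts in all. The 4 libraries with α-amanitin held 7, 7, 3 and 3 of them, and the other 16 libraries held 3 counts, 1 each in G2, MG132 and bortezomib. It was too low to be tested.

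HERV17-int, the internal region of the same HERV-W elements, had its highest group mean with α-amanitin, 13.4 ± 5.28 CPM against 11 ± 3.12 CPM with bortezomib (SD, n = 4), and these groups overlapped. It held 19.8, 14.5, 12.3 and 7.05 CPM there and 8.74, 4.39, 6.93 and 2.7 CPM with MG132, and the groups overlapped. Its log2 fold change was 1.23 ± 0.456 (SE), which did not pass (edgeR adjusted p = 0.226). LTR17, its LTR, differed by 0.05 on the log2 scale (adjusted p = 0.985). When repeats alone were fitted and scaled to each other, HERV17-int was called at 0.98 (adjusted p = 0.0028). The range of adjusted p over its 20 alternatives was 0.0028 to 0.588.

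That fit measured the composition of the repeats. It called 19 ERV1 subfamilies higher and 4 lower of 274 tested in MG132 with α-amanitin against MG132, or 8.39%, where 5.39% of all repeats were called. Relative to other repeats the higher ones included MER89-int (2.12), MER4-int (0.71), HERV17-int (0.98), Harlequin-int (0.89), an internal region related to HERVE, and HERVS71-int (0.67). The lower ones were LTR4 (-1.66), LTR10F (-0.93), LTR56 (-0.45) and HERV-Fc1_LTR3 (-5.29), the last of which held 101 counts in all. LTR56 and HERV-Fc1_LTR3 were named after their values were seen. Against G2 the same fit called 11 higher and 1 lower, MER61-int (-0.71), where 2.23% of all repeats were called. MER4-int, the internal region of the MER4 elements, held 29.3, 23.7, 24.3 and 15.8 CPM with α-amanitin and 18.2, 11.8, 11.7 and 6.69 CPM with MG132. With genes in the fit its log2 fold change was 0.94 (edgeR adjusted p = 0.237).

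In the drug groups against G2, LTR7Y had negative values where most ERV1 subfamilies had positive ones. Asynchronous libraries held 197, 105, 134 and 123 CPM and G2 libraries 98.5, 117, 98.9 and 100 CPM. After 3 h of MG132 the values were 65.8, 59.8, 57.9 and 82.8 CPM, with bortezomib 53.8, 61.6, 69.5 and 72.7 CPM, and with MG132 and α-amanitin 80.1, 82.1, 65.6 and 76.7 CPM. Each G2 library stood above all 12 libraries with a drug. None of the 3 differences passed by edgeR. The log2 fold changes against G2 were -0.64 ± 0.193 (SE, adjusted p = 0.108) with MG132, -0.69 ± 0.193 (adjusted p = 0.0909) with bortezomib and -0.45 ± 0.193 (adjusted p = 0.279) with MG132 and α-amanitin. The 3 share the G2 libraries and the 3 h of time.

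The other HERVH rows had other values. HERVH-int held 399, 383, 373 and 441 CPM in G2, 486, 245, 263 and 266 CPM with MG132, 348, 286, 362 and 643 CPM with bortezomib and 534, 678, 538 and 315 CPM with MG132 and α-amanitin. All of these groups overlapped, and the nearest of its differences to the threshold was α-amanitin with MG132 against MG132, at 0.71 (edgeR adjusted p = 0.274). LTR7, the canonical LTR of HERVH, held 6.99 to 15.3 CPM in G2, 13.5 to 31.9 CPM with bortezomib and 9.48 to 28.2 CPM with MG132 and α-amanitin. LTR7B held 2.34 to 4.36 CPM in G2 and 4.75 to 7.14 CPM with MG132 and α-amanitin, without overlap (log2 fold change 0.79, adjusted p = 0.185). LTR7C held 0.988 to 1.9 CPM in G2 and 1.11 to 3.52 CPM with bortezomib. Of the 5 tested HERVH and LTR7 rows, LTR7Y was the 1 with a negative value for bortezomib against G2. For MG132 against G2, 2 of the 5 were negative, LTR7Y and HERVH-int (log2 fold change -0.34, edgeR adjusted p = 0.811). For G2 against asynchronous cells 4 of the 5 were negative.

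MG132 against G2 showed little change in the ERV1 set. By edgeR 0 of 271 were called, where 1.86% of all rows and 0.186% of repeat subfamilies were. There were 10 at an unadjusted p under 0.05 (3.69%, against 1.95% of repeat subfamilies and 11.3% of all rows). DESeq2 called 1, LTR4. The median log2 fold change was 0.12, against 0.17 over all repeats and -0.03 over genes, and it turned to -0.16 with mitochondrial mRNA scaling and without MG132 replicate 1, to -0.04 with total library size scaling and to -0.05 without G2 replicate 2. The groups did not overlap for 4 subfamilies higher and 2 lower, where 1.12% and 0.186% of repeat subfamilies did so. Over all 20035 tested rows, 405 did so higher and 845 lower. MER41 elements, some of which are known as interferon-responsive enhancers, had a median of 0.39 over 7 tested rows with 0 called. MER41E, named after its values were seen, went the other way, from 4.45 to 8.05 CPM in G2 to 1.82 to 4.09 CPM (log2 fold change -0.94, adjusted p = 0.118).

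Bortezomib against G2 gave values above 0 for nearly the whole set, as for the other repeats. Positive values were found for 264 of 271 tested subfamilies with a median log2 fold change of 0.79, against 0.85 over all repeats and -0.01 over genes. At an unadjusted p under 0.05 there were 97 higher and 2 lower. That was 36.5% of ERV1 subfamilies in either direction, against 46% of repeat subfamilies and 16.2% of all rows. But edgeR called 0 after adjustment, where 1.07% of all rows and 0.0929% of repeat subfamilies were, and DESeq2 called 8 higher and 1 lower. The groups did not overlap for 32 subfamilies higher and 1 lower, where 12.7% and 0.0929% of repeat subfamilies did so. Over all 20035 tested rows, 1590 did so higher and 1432 lower. MER41A held 11.4, 8.76, 17.6 and 16.5 CPM in G2 and 34.6, 20.9, 18.4 and 47.6 CPM with bortezomib, with no overlap (log2 fold change 1.16, edgeR adjusted p = 0.097). Among families the highest median, 1.1 over 7 rows, was that of HUERS-P3 and LTR9, in which LTR9 ran from 1.92 to 8.47 CPM in G2 and from 8.06 to 26.7 CPM with bortezomib. For LTR10C, an LTR with known p53-binding copies, the log2 fold change was 1.09 (adjusted p = 0.109). When repeats were fitted and scaled alone, the ERV1 median became -0.1.

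**Figure D4:**
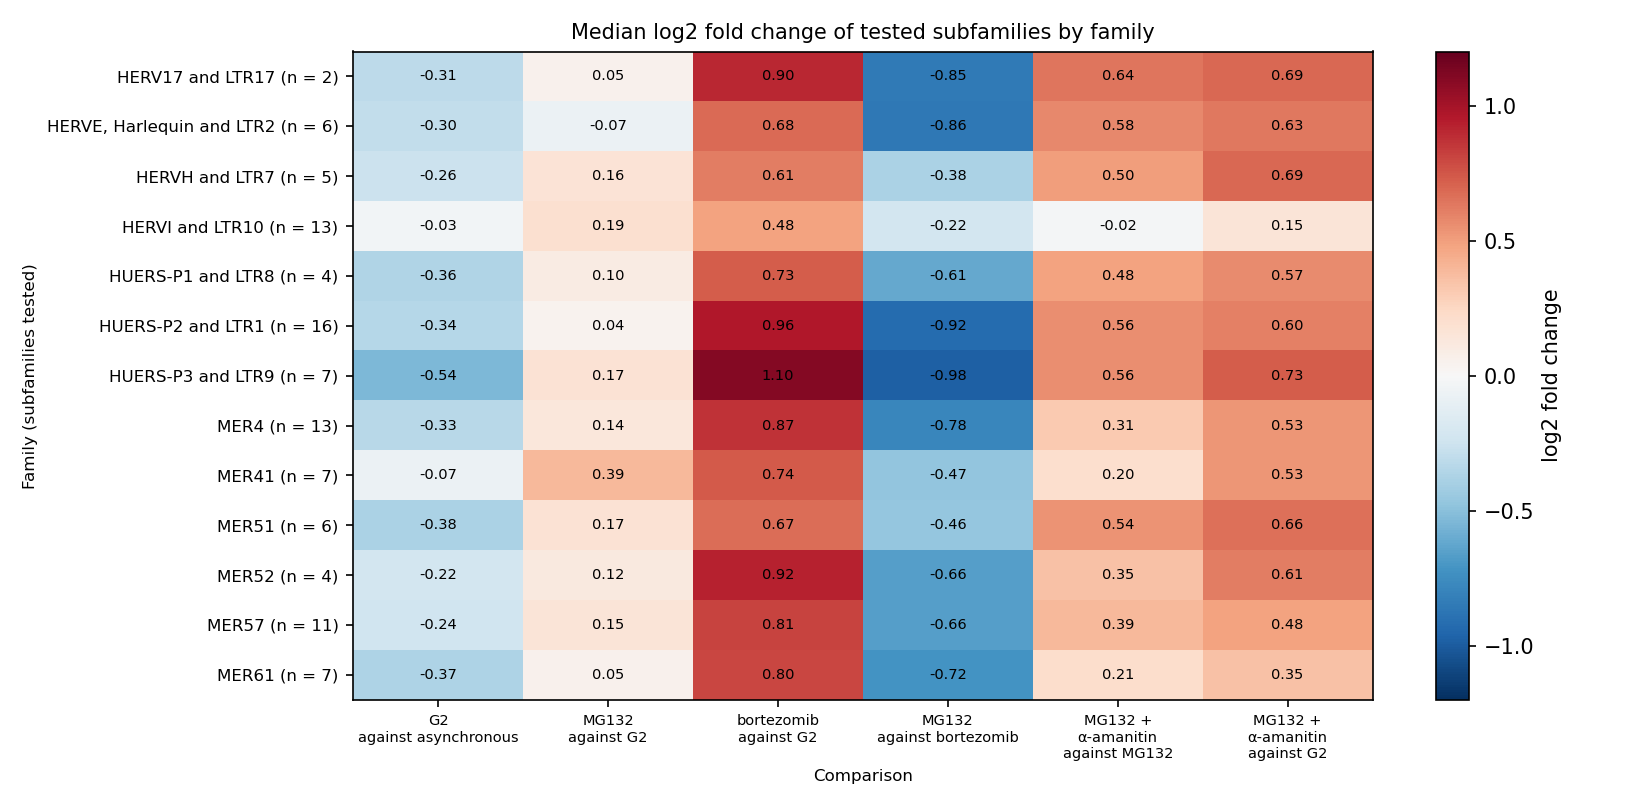
Median log2 fold change of the tested subfamilies of 13 ERV1 families (rows, with the number tested) in the 6 comparisons (columns); red is higher and blue lower in the first-named group. The bortezomib column against G2 is positive in all 13 families (the ERV1 median becomes -0.1 when repeats are fitted and scaled alone), and the HERVI and LTR10 row has the lowest median of the 13 with α-amanitin and MG132 against MG132, at -0.02.

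The families described here for known promoter or enhancer roles had 0 or 1 rows called with genes in the fit. LTR10 elements are known AP-1-bound enhancers in colorectal cancer cells. Their group, with HERVI, had 1 of 13 rows called by edgeR with genes in the fit, LTR10G in α-amanitin with MG132 against MG132. In that comparison 5 of 271 ERV1 subfamilies were called higher and 1 lower, and 0.929% of repeat subfamilies were called. When repeats were fitted alone, LTR10F was called lower there, as given above, and LTR10G higher at 1.24 (edgeR adjusted p = 0.0111). That fit called 8.39% of ERV1 subfamilies and 5.39% of all repeats. LTR10A held 5.77 to 8.1 CPM in G2, 5.68 to 13.5 CPM with MG132 and 5.58 to 8.24 CPM with MG132 and α-amanitin. LTR10F held 7.2, 10.6, 11.3 and 12.9 CPM among the MG132 libraries and 4.2, 6.58, 7.76 and 9.34 CPM once α-amanitin was added (log2 fold change -0.59, adjusted p = 0.506). The internal regions HERVIP10F-int and HERVIP10FH-int had log2 fold changes of -0.64 (adjusted p = 0.519) and -0.56 (adjusted p = 0.575) in that comparison, where 236 of 271 subfamilies had positive values. MER61 elements, known for p53-bound copies, had 7 rows tested and 0 called by edgeR with genes in the fit. Over the 6 comparisons 0% to 0.929% of repeat subfamilies were called. MER61-int was called lower in α-amanitin with MG132 against G2 when repeats were fitted alone, as given above.

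MG132 against bortezomib at 3 h, at different doses and with different inhibitors of the proteasome, gave 0 called ERV1 subfamilies by edgeR and 0 by DESeq2, where 0.0349% of all rows and 0% of repeat subfamilies were called. At an unadjusted p under 0.05 there were 2 higher and 50 lower (19.2% of ERV1 subfamilies, 11.2% of repeat subfamilies and 4.44% of all rows). The median log2 fold change was -0.67, against -0.69 over all repeats and -0.01 over genes, and it became 0.05 when repeats were fitted and scaled alone. MG132 lay below bortezomib without overlap for 14 of 271 subfamilies and above it for 1, where 2.6% and 0.0929% of repeat subfamilies did so. Over all 20035 tested rows, 297 lay below and 331 above. LTR2C, an LTR of HERVE, held 1.76 to 2.16 CPM with MG132 and 2.8 to 3.35 CPM with bortezomib (log2 fold change -0.63 ± 0.193 SE, adjusted p = 0.886). For LTR7Y the difference was 0.05 ± 0.192 (SE, adjusted p = 0.985).

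G2 against asynchronous cells gave 0 called ERV1 subfamilies by edgeR, where 1.88% of all rows and 0.279% of repeat subfamilies were called. There were 7 at an unadjusted p under 0.05 (2.58%, against 2.32% of repeat subfamilies and 12.5% of all rows). DESeq2 called 1. Negative values were found for 227 of 271, with a median of -0.28 against -0.31 over all repeats and -0.04 over genes, and the median became 0.03 when repeats were fitted and scaled alone. The 2 groups did not overlap for 0 subfamilies higher and 1 lower, where 0.465% and 0.186% of repeat subfamilies did so. Over all 20035 tested rows, 1095 did so higher and 360 lower. HERVIP10F-int had the higher values in G2, 64, 28.3, 67.7 and 82.7 CPM against 26.9, 44.7, 19.3 and 52.1 CPM (log2 fold change 0.76, adjusted p = 0.398). LTR45B, named after its values were seen, rested on G2 replicate 2 with 17.2 CPM, where the other G2 libraries held 1.38 to 2.43 CPM. Its log2 fold change of 1.97 against asynchronous cells (adjusted p = 0.115) ran from 0.37 to 2.33 as each library was left out.

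The listed genes that silence these elements or, like TET1, TET2 and TET3, act on DNA methylation did not pass the test. Of 31 listed genes, all were tested and 0 were called in each of the 6 comparisons by edgeR and by DESeq2, with 0 to 3 at an unadjusted p under 0.05, where 4.05% to 14.5% of all tested genes were. TRIM28, the corepressor that KRAB zinc finger proteins recruit, held 830 ± 217 CPM in asynchronous cells, 559 ± 107 in G2, 569 ± 169 with MG132, 551 ± 71.1 with bortezomib and 589 ± 26.6 with MG132 and α-amanitin (SD, n = 4). Its difference between G2 and asynchronous cells, -0.57 ± 0.224 (SE) on the log2 scale, was the largest of the 6 in size and did not pass (edgeR adjusted p = 0.248). SETDB1, which places the repressive H3K9 methylation, held 40.9 to 48.5 CPM in G2 and 31.3 to 39.9 CPM with MG132 and α-amanitin, without overlap (log2 fold change -0.36, adjusted p = 0.411). Of 18959 tested genes, 1373 lay lower without overlap there, among them SUV39H1 (-0.61, adjusted p = 0.177) and DAXX (-0.43, adjusted p = 0.39) of the list. CBX5 (0.74, adjusted p = 0.419) and DNMT3A (0.48, adjusted p = 0.486) had positive values with overlap, and the median over the list was 0.07. DNMT1, the maintenance DNA methyltransferase, held 242 ± 59.4 CPM in G2 and 268 ± 87.7 CPM with MG132 (SD, n = 4).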

How the data were processed

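RNA was extracted with TRIzol, treated with TURBO DNase and, after ribosomal RNA removal, put through TruSeq stranded library preparation, per the labels' protocols. The authors deposited raw counts, whole numbers with no normalisation, for genes and repeat subfamilies in 20 libraries, of which 0 columns were unmapped. Per the submitters' processing notes, FastQC, cutadapt 1.18, STAR and hg38 were used. For the counting tool, its annotation, its strand setting and its use of multi-mapping reads, nothing is given in the sources used here. Reads of young subfamilies that align to many copies, and repeats inside genes, are therefore uncertain. Library totals were 26797395 to 39710457 counts, and a count's precision is limited by sampling for low subfamilies.

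Groups came from the labels. All 20035 rows that passed filterByExpr (18959 genes and 1076 repeats) entered 1 fit by edgeR 4.0.16 under R 4.3.3 (TMM, robust quasi-likelihood test, 1 mean per group, 15 residual degrees of freedom), and p-values were adjusted by Benjamini-Hochberg over all rows. A call is an adjusted p under 0.05. CPM use TMM-scaled library sizes, and log2 fold changes are edgeR's. The SE of a log2 fold change was derived, as its size divided by the square root of the test's F statistic. DESeq2 1.42.0 was an alternative. Named subfamilies were, in each comparison, the 6 highest and 6 lowest called whose mean log2 CPM was 1 or more, and a fixed set of known elements. The members, lists, tests and alternatives were chosen with earlier results of these data known. Among same-numbered libraries 7 of 24 pairs had correlated deviations over 0.1, so the numbers were not taken to pair samples. These correlations ran from -0.743 to 0.763. For replicates 1 to 4 of MG132 with α-amanitin against MG132 they were 0.669, 0.049, 0.141 and 0.589. Replicates 1 and 4 there correlated best with their own number, and replicates 2 and 3 did not. No replicates agreed within sampling noise (lowest chi-square per degree of freedom 11.2). The fit was tested on simulated counts in which rows were drawn independently. Such counts cannot measure its error rate for repeats that move together between libraries. Sequences are from RefSeq (GRCh38.p14).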

Additional observations from a re-analysis of the deposited data

Results flagged for a closer look

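In a group of 4 libraries, 12 of 145 sets of values had 1 library far from the other 3 by Dixon's ratio, where chance gives about 5%. LTR45B stood high in G2 replicate 2, at 17.2 CPM against 1.38 to 2.43 CPM in the other G2 libraries. HERVH-int stood high in asynchronous replicate 1 with 657 CPM (409 to 436 CPM in the others) and in MG132 replicate 1 with 486 CPM (245 to 266 CPM). LTR7Y was highest in G2 replicate 2 with 117 CPM, above 98.5 to 100 CPM.

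LTR43 reached 4.67 CPM in replicate 1 with MG132 and α-amanitin (3.34 to 3.46 CPM in the others), and HERV4_I-int fell lowest in replicate 4 of that group with 10.7 CPM (13.6 to 13.9 CPM). LTR10C held 17.4 CPM in MG132 replicate 1 against 10.1 to 10.6 CPM. MER67A held 3.7 CPM in bortezomib replicate 4 against 2.25 to 2.33 CPM. MER66B was low in asynchronous replicate 3 with 13.6 CPM (15.7 to 16.1 CPM), and LTR2C in G2 replicate 1 with 1.95 CPM (2.39 to 2.47 CPM).

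The ERV1 share of repeat counts was low in MG132 replicate 4, at 1.65% against 2.5% to 2.64%. ERVMER34-1 was low in bortezomib replicate 2 with 28.3 CPM, where the others held 40.6 to 42.3 CPM.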

How the results depend on the processing

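The counts of called ERV1 subfamilies moved with the processing, and the cause was not tested. Total library size scaling gave 1 call for G2 against asynchronous, 2 for MG132 against G2 and 3 for MG132 plus α-amanitin against G2. In the 2 α-amanitin comparisons (against MG132, then against G2), mitochondrial mRNA scaling gave 2 and 3, repeats fitted and scaled alone 23 and 12, no filter 3 and 3, and the code letter block 2 and 0. DESeq2 gave 1 call for G2 against asynchronous, 1 for MG132 against G2, 9 for bortezomib against G2 and 13 for MG132 plus α-amanitin against G2. A fit of only the groups compared gave 1 for bortezomib against G2 and 0 for α-amanitin with MG132 against MG132. The replicate block gave 3 for MG132 plus α-amanitin against G2, and the numbers are not known to pair the libraries: 5 of 24 same-numbered pairs correlated best with their own number. The letter block gave 1 for MG132 against G2, and adjustment over repeats alone 1 for MG132 plus α-amanitin against G2. Without the 4 GC-skewed libraries, α-amanitin with MG132 against MG132 gave 1.

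With 1 library left out in turn, calls ran from 2 to 9 for α-amanitin with MG132 against MG132, 1 to 7 for α-amanitin with MG132 against G2, 0 to 1 for bortezomib against G2 and 0 to 1 for MG132 against G2, and were 0 in the other comparisons. Called genes of the silencing list ran from 0 to 1 for α-amanitin with MG132 against MG132. One was called against G2 in the fit of only those groups, and without the GC-skewed libraries 1 against MG132 and 2 against G2.

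Some single values changed sign. When repeats were fitted alone, LTR48B (-0.46) and LTR4 (-0.8) reversed in bortezomib against G2, and LTR2C (0.1) in MG132 against bortezomib. LTR45B in MG132 against G2 ran from -0.57 to 1.35 with 1 library left out, the latter without G2 replicate 2, and became 1.17 without the GC-skewed libraries and 0.17 with the replicate block. The median shift over all rows was up to -0.41 with mitochondrial mRNA scaling and 0.17 with library size scaling. For repeats fitted and scaled alone it was up to -0.88, and there it covers repeat rows only. Leaving out both replicates 1 that stood apart in SINE sums was an alternative added after the data were seen, and it kept every count of calls within 1.5 times.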
